A study of Mus musculus with 24 samples.

Results

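The subfamilies described here are the 255 mouse ERVK repeats of class LTR whose names do not begin with IAP, ETn, MMETn or RLTRETN. They were taken by name from 1146 repeat subfamilies in the deposited count tables, of which 285 were ERVK and the other 30 were the IAP and ETn subfamilies. By name, 223 of the 255 are long terminal repeats (LTRs) and 32 are internal parts. The names fall into 46 RMER, 23 RLTR13, 21 ERVB, 13 RLTR9, 10 RLTR10, 7 BGLII, 5 MMERVK, 4 RLTR17 and 3 MYSERV subfamilies, 97 further RLTR subfamilies and 26 with other names. The choice used names only and no measured value.

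ERVK elements are endogenous retroviruses related to betaretroviruses. A complete copy has an internal part with viral genes between a pair of LTRs, and recombination between the LTRs leaves a solitary LTR, the form in which most old copies persist. LTRs hold the promoter and enhancer sequences, and in embryonic stem cells zinc finger proteins recruit TRIM28 and the methyltransferase SETDB1 to many ERVK copies, where they keep the copies silent. DUX is a homeobox transcription factor of the early cleavage embryo that is best known for activating MERVL, an element of another family (ERVL).

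The libraries came from KH2 cells, a mouse embryonic stem cell line, grown on gelatin or on feeder fibroblasts, with rRNA-depleted total RNA sequenced from each. Every line carried DUX behind the TRE promoter, which doxycycline (DOX) switches on, and was sampled without DOX and after 16 h of DOX, with 2 libraries per group and 24 in all. The 6 lines were WT and DUXBL-KO without a pLV2 tag in their titles, and the WT pLV2 lines 1 and 2, TRIM24-KO and TRIM33-KO, all with that tag. What pLV2 is, which WT line belongs to which knockout and whether a line is a single clone were not given in the sources used here. The treatment tag disagreed with the title in 8 pLV2 libraries, and the titles were followed.

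Gene counts per library ranged from 11784696 to 19136869, and the 255 subfamilies took 0.374% to 0.920% of all counts. Counts of Duxf3, the gene name that holds Dux, were 0 to 2 in the libraries titled without DOX and 20 to 110 in those with it. Trim33 had 156 to 446 counts in TRIM33-KO and 1116 to 2851 elsewhere. Trim24 was 120 to 137 CPM (counts scaled to a fixed total of gene counts) in TRIM24-KO, above the 94.5 to 100.2 CPM of WT pLV2 line 1 and below the 165 to 271 of the other 4 lines. Duxbl1 had 6 to 169 counts in DUXBL-KO, within the 5 to 179 of the other lines. The tables do not show which part of either gene was deleted, so these are the libraries labelled TRIM24-KO and DUXBL-KO throughout. Duxf3 with DOX was 1.38 and 1.09 CPM in WT and 4.93 and 2.84 in DUXBL-KO. It was 7.23 and 8.32 CPM in WT pLV2 line 1 and 4.43 and 3.95 in line 2. TRIM24-KO had 3.15 and 3.05 CPM, and TRIM33-KO had 6.93 and 5.85. The part of these Duxf3 levels in the differences between lines was not tested. The summed level of 8 stem cell markers was 3143 to 4495 CPM, and that of 12 fibroblast markers was 30.1 to 61.3 CPM without DOX and 39.5 to 69.9 with it, with 6 of the 12 at or under 3 counts in every library. The part of fibroblast RNA in the results was not tested. A single gene, CT010467.1, took up to 30.4% of gene counts, in TRIM24-KO with DOX replicate 2. It took 12.9% in TRIM33-KO with DOX replicate 2 and at most 1.30% in any other library.

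DOX raised part of these subfamilies in every line and, with 3 exceptions, lowered none. Of the 255, 240 passed the filter on low counts in WT and DUXBL-KO and 241 in the pLV2 lines, 8 and 7 of these through their DOX libraries alone, and 5 had no count in any library. In WT, 20 of 240 rose (8.33%), beside 8.97% of all 981 tested repeats. Leaving out either WT library without DOX took the WT count to 0 (0.199% and 0.200% of all repeats), and leaving out WT with DOX replicate 1 or 2 took it to 4 (2.39%) or 51 (16.7%). It was 45 (18.8%, all repeats 15.5%) with the replicate number as a block, 39 (16.2%, all repeats 14.1%) with DESeq2, 62 (24.8%, all repeats 18.5%) with no filter on low counts and 6 (2.55%, all repeats 3.60%) with only the groups compared in the fit. Replicates of the same number in these lines deviated together (correlation 0.255 to 0.549). In DUXBL-KO, 90 of 240 rose (37.5%), beside 29.3% of all repeats, and 24 to 91 were called with 1 of its libraries left out, where 11.2% to 32.8% of all repeats rose. The share was larger in the pLV2 lines, which were fitted apart and varied less between libraries: 164 of 241 rose in WT pLV2 line 1 (68.0%, all repeats 61.2%) and 206 in WT pLV2 line 2 (85.5%, all repeats 71.8%). TRIM24-KO had 165 of 241 (68.5%, all repeats 56.0%) and TRIM33-KO had 212 (88.0%, all repeats 77.4%). The falls were 2 subfamilies in WT pLV2 line 1 (0.311% of all repeats fell) and 1 in TRIM24-KO (0.725%), and none fell in WT pLV2 line 2 (0.207%) or TRIM33-KO (1.04%). All calls are edgeR quasi-likelihood tests with a Benjamini-Hochberg adjusted p under 0.05 over all tested repeats. In bulk RNA, more cells that make a transcript and more transcript per cell cannot be told apart.

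The typical size of the response followed the same order of lines. The median log2 fold change of the tested subfamilies was 0.31 in WT, 0.49 in DUXBL-KO, 0.75 in WT pLV2 line 1, 1.25 in WT pLV2 line 2, 0.78 in TRIM24-KO and, highest, 1.54 in TRIM33-KO. Over all tested repeats it was 0.20, 0.32, 0.59, 0.95, 0.56 and 1.21 in the same order, and over the IAP and ETn subfamilies it was 0.77, 1.08, 1.39, 2.08, 1.50 and 2.67. Rises of at least 2-fold (log2 of 1) that passed the test numbered 17, 52, 78, 144, 102 and 166, beside 5.81%, 16.2%, 28.7%, 46.8%, 31.6% and 56.6% of all repeats. Every DOX library was above every library without DOX for 139, 163, 201, 224, 188 and 225 tested subfamilies, beside 51.4%, 52.2%, 77.5%, 81.3%, 68.2% and 84.6% of all repeats. The summed CPM of all 255 subfamilies was 1.23, 1.41, 1.68, 2.46, 1.67 and 3.02 times its level without DOX. Split by level without DOX, the 60 subfamilies with the lowest CPM had a median of 0.54 in WT and the 60 with the highest had 0.18, a description that uses the same libraries for both values. Their summed share of the repeat counts moved the other way: its mean over 2 libraries was lower with DOX in each line, at 4.68%, 4.29%, 4.84%, 4.18%, 4.73% and 4.09% in the order of lines above, against 4.95%, 4.88%, 4.97%, 4.90%, 5.71% and 5.45% without DOX. The libraries with and without DOX overlapped in WT pLV2 line 1 and in no other line, with no test made. A median counts each subfamily once, and the sum follows those with the most counts.

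**Figure D1:**
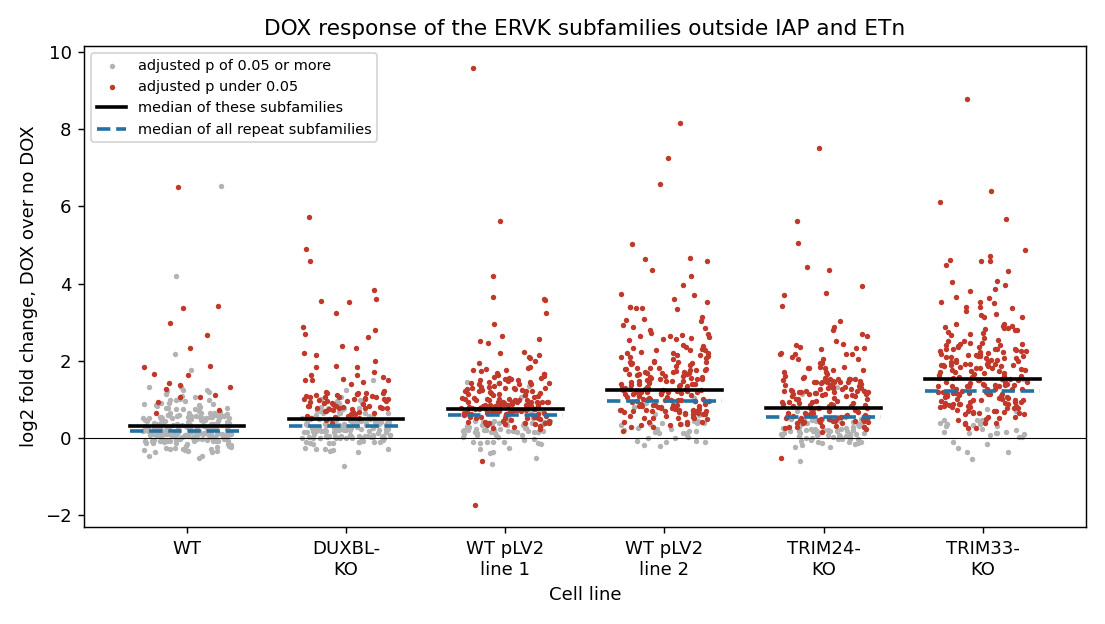
Log2 fold change with DOX of each tested subfamily (points, 240 or 241 per line) in the 6 lines, with the median of these subfamilies and that of all tested repeats. The median of these subfamilies lies above that of all repeats in each line and is highest in TRIM33-KO, at 1.54.

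These fold changes are relative to gene counts. When libraries were scaled on repeat counts alone, the median of all repeats moved by -0.21, -0.34, -0.60, -0.88, -0.65 and -1.23 in WT, DUXBL-KO, the WT pLV2 lines 1 and 2, TRIM24-KO and TRIM33-KO. Relative to the other repeats, the subfamilies that rose and fell then numbered 16 and 0, 31 and 1, 73 and 24, 115 and 35, 85 and 29, and 113 and 59 of 240 in the same lines. The shares that rose were 6.67%, 12.9%, 30.4%, 47.9%, 35.4% and 47.1%, beside 5.08%, 11.8%, 24.1%, 34.2%, 25.8% and 36.2% of all repeats on that scale. The shares that fell were 0.0%, 0.417%, 10%, 14.6%, 12.1% and 24.6%, beside 0.0%, 0.102%, 13.0%, 27.3%, 22.4% and 35.6%. The median of the subfamilies on that scale was still above 0 in each line, between 0.10 in WT and 0.36 in WT pLV2 line 2.

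In all 6 lines 20 subfamilies rose (8.33% of 240, beside 9.21% of all repeats tested in both sets). They are the 20 called in WT, so the number is 0 when either WT library without DOX is left out. It was 43 (all repeats 15.4%) with the replicate number as a block, 38 (14.2%) with DESeq2 and 59 (17.8%) with no filter, which are 17.9%, 15.8% and 23.6% of the subfamilies tested, the 20 included in each. Internal parts among them were ERVB4_1, ERVB4_1B, ERVB4_2, ERVB4_3, MMERVK10C, MMERVK9E, RMER3D and SRV_MM. The LTRs were BGLII_Mus, ERVB4_2, ERVB4_3, ERVB7_2B, MLTR31F_MM, RLTR10C, RLTR13D5, RLTR19, RLTR43C, RLTR9A3A, RMER13B and RMER19A. Of these, ERVB4_3-LTR_MM in both sets and RLTR43C in WT and DUXBL-KO were tested only because of their DOX libraries. With scaling on repeats alone 15 of the 20 remained (6.25%, all repeats 4.91%), and BGLII_Mus, MLTR31F_MM, RMER13B, RMER19A and RMER3D-int dropped out. A larger set, 84 of the 240 (35.0%, beside 28.3% of all repeats), rose in the 5 lines other than WT, the 20 among them. In the 4 pLV2 lines 150 rose (62.5%, beside 50.1% of all repeats), and 19 of the 240 rose in no line (7.92%, beside 18.9% of all repeats). Of the 150, 63 remained with scaling on repeats alone, where the shares of all repeats per line are those given above.

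The ERVB4 subfamilies stood high among the risers. They were grouped after their values were seen. ERVB4 elements are betaretrovirus-like copies with named internal parts and LTRs. Of 8 tested, 6 rose in WT, 7 in DUXBL-KO and all 8 in each pLV2 line, with ERVB4_3-LTR_MM counted although it was tested only because of its DOX libraries. Of the 12 ERVB subfamilies tested outside ERVB4, 1, 4, 6, 11, 7 and 11 rose in WT, DUXBL-KO, the WT pLV2 lines 1 and 2, TRIM24-KO and TRIM33-KO. Their shares were 8.33%, 33.3%, 50%, 91.7%, 58.3% and 91.7%. Of all repeats, 8.97%, 29.3%, 61.2%, 71.8%, 56.0% and 77.4% rose in the 6 lines. The median log2 fold change of the 8 ERVB4 subfamilies, ERVB4_3-LTR_MM included, was 1.76, 2.50, 2.35, 3.55, 2.78 and 4.16 in WT, DUXBL-KO, the WT pLV2 lines 1 and 2, TRIM24-KO and TRIM33-KO. That of the ERVB subfamilies outside ERVB4 was 0.54, 0.75, 0.78, 1.28, 1.03 and 1.62.

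ERVB4_3-LTR_MM was nearly silent without DOX. The libraries without DOX counted 0 and 1 (WT), 0 and 4 (DUXBL-KO), 0 and 0 (WT pLV2 line 1), 0 and 3 (WT pLV2 line 2), 0 and 1 (TRIM24-KO) and 1 and 1 (TRIM33-KO). Those with DOX counted 88 and 40, 99 and 102, 83 and 89, 212 and 151, 59 and 74, and 268 and 243 in the same lines. Every DOX library was above every library without DOX. The level was at least 65.5-fold higher in WT pLV2 line 1, taken against 3 counts over the group, and the ratio was 511 (95% counting interval 141 to 4231) in TRIM33-KO and 169 (57.3 to 822) in WT pLV2 line 2. In both sets of libraries it passed the filter on low counts through its DOX libraries alone, so its adjusted p-values are not given as support. Setting the LTR at its bound left the ERVB4 median of WT pLV2 line 1 at 2.35.

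ERVB4_2-LTR_MM had a measurable level without DOX. In WT it was 1.71 and 1.46 CPM without DOX and 23.7 and 8.92 with it. In WT pLV2 line 2 it went from 1.50 and 0.92 to 144 and 95.5 CPM, and in TRIM33-KO from 2.68 and 3.36 to 201 and 218. The groups did not overlap in any line, and TRIM24-KO without DOX, at 8.77 and 14.0 CPM, was the highest of the groups without DOX. The log2 fold change was 3.36 ± 0.48 (SE) in WT, 3.24 ± 0.45 in DUXBL-KO, 3.59 ± 0.28 in WT pLV2 line 1, 6.58 ± 0.32 in WT pLV2 line 2, 2.69 ± 0.24 in TRIM24-KO and 6.11 ± 0.28 in TRIM33-KO. Its internal part, ERVB4_2-I_MM-int, rose less in each line, by 1.43, 1.84, 2.08, 3.41, 2.06 and 3.65 on the log2 scale.

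RLTR13D5, an LTR known as an enhancer in trophoblast stem cells, rose in every line. Without DOX it was between 1.87 and 3.83 CPM in all 12 libraries. With DOX it was 28.3 and 12.6 CPM (WT), 53.4 and 30.6 (DUXBL-KO), 33.1 and 45.5 (WT pLV2 line 1), 81.5 and 94.6 (WT pLV2 line 2), 27.4 and 58.2 (TRIM24-KO), and 122 and 105 (TRIM33-KO). All 12 DOX libraries were above all 12 without DOX. The log2 fold change ran from 2.67 ± 0.47 in WT (edgeR adjusted p = 0.0226) to 5.68 ± 0.30 in TRIM33-KO (1.94e-11).

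RLTR13D6, a relative known as an enhancer in embryonic stem cells, responded less. In WT it was 7.99 and 8.20 CPM without DOX and 15.1 and 10.4 with it, groups that did not overlap, but the difference missed the threshold (0.66 ± 0.20, edgeR adjusted p = 0.0884). It rose in the other 5 lines, by 0.78 in DUXBL-KO up to 2.12 in TRIM33-KO. RLTR13G, the subfamily with the largest share of the counts (6.97%), hardly differed with DOX: it was 632 and 733 CPM in WT without DOX and 634 and 764 with it, overlapping groups. It rose a little in WT pLV2 line 2 (0.29) and TRIM33-KO (0.26), directions that turned to -0.59 and -0.96 with scaling on repeats alone. Across the 23 RLTR13 subfamilies, 1, 10, 17, 21, 13 and 20 rose in WT, DUXBL-KO, the WT pLV2 lines 1 and 2, TRIM24-KO and TRIM33-KO. The shares were 4.35%, 43.5%, 73.9%, 91.3%, 56.5% and 87.0%, beside 8.97%, 29.3%, 61.2%, 71.8%, 56.0% and 77.4% of all repeats, so WT was below the background and TRIM24-KO near it.

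RLTR9A3A and RLTR43C were further LTRs with low starting levels. RLTR9A3A was 0.38 to 1.39 CPM in all libraries without DOX. With DOX it was 12.8 and 6.24 CPM (WT), 8.67 and 7.65 (DUXBL-KO), 9.97 and 7.26 (WT pLV2 line 1), 18.0 and 16.6 (WT pLV2 line 2), 26.8 and 28.8 (TRIM24-KO), and 31.6 and 24.6 (TRIM33-KO). No library with DOX overlapped any without it. Its log2 fold change in TRIM24-KO, 5.61 ± 0.26, was the highest of the 6 lines, but the difference from the WT pLV2 lines missed the threshold (1.65 ± 0.41, edgeR adjusted p = 0.055). RLTR43C was 0.30 to 0.86 CPM without DOX and 2.13 to 24.1 with it, and in WT and DUXBL-KO it passed the filter through its DOX libraries alone. Its log2 fold change ran from 2.96 in WT pLV2 line 1 to 4.86 in TRIM33-KO.

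**Figure D2:**
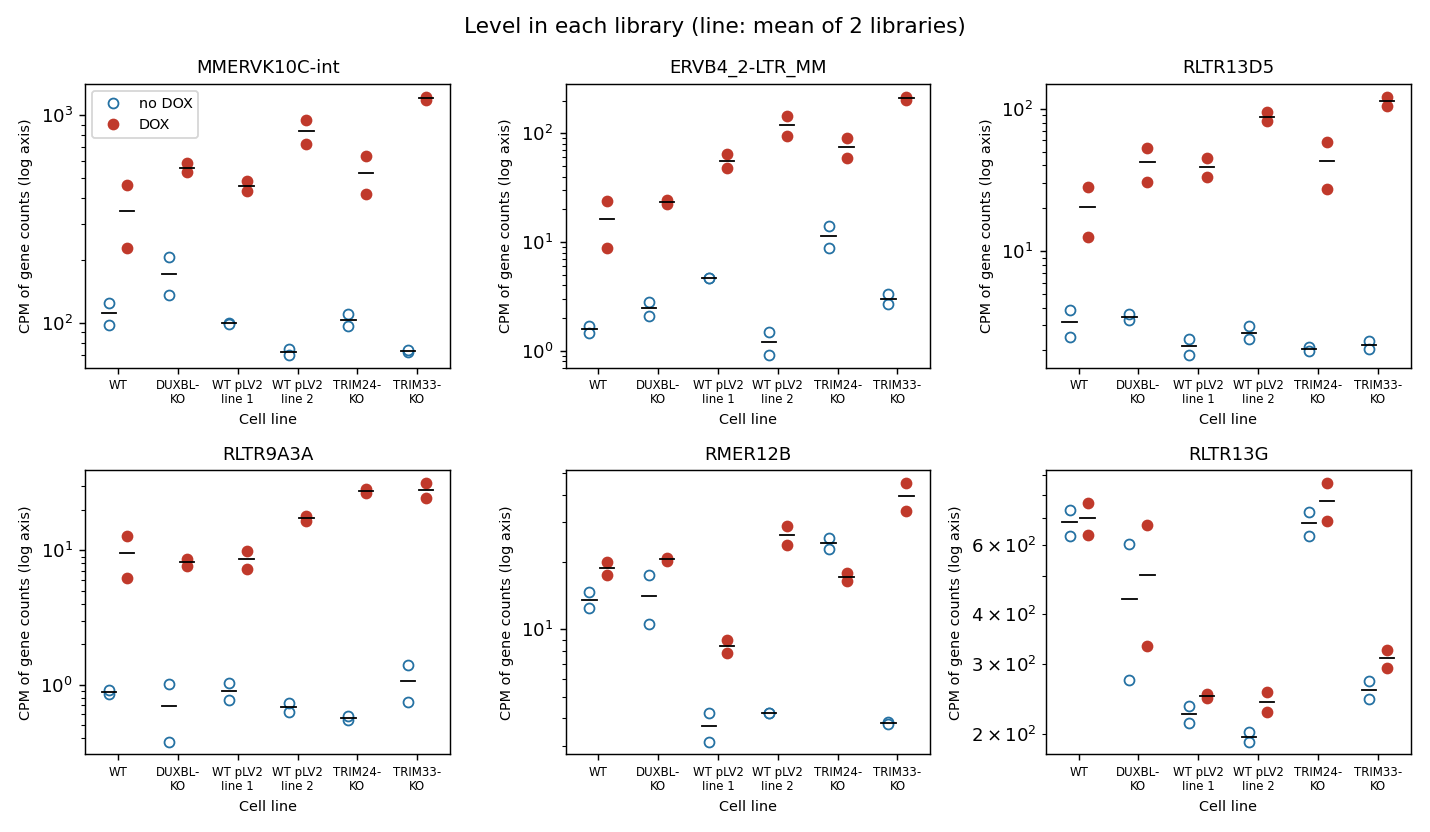
Level in each of the 24 libraries (CPM, log axis) of 6 subfamilies, with open circles for libraries without DOX, filled circles for those with DOX and a line at the mean of 2 libraries. RLTR13D5 lies between 1.87 and 3.83 CPM in all libraries without DOX and at or above 12.6 CPM with it.

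The RLTR9 group as a whole responded less than RLTR9A3A. Of 12 tested, 1, 4, 7, 10, 7 and 11 rose in WT, DUXBL-KO, the WT pLV2 lines 1 and 2, TRIM24-KO and TRIM33-KO. These are 8.33%, 33.3%, 58.3%, 83.3%, 58.3% and 91.7%, beside 8.97%, 29.3%, 61.2%, 71.8%, 56.0% and 77.4% of all repeats, near the background in most lines. RLTR9 LTRs are known to carry binding sites of pluripotency factors. RLTR9D rose in 5 lines, by 0.64 in WT pLV2 line 1 up to 1.53 in TRIM33-KO, and had 0.35 in WT (edgeR adjusted p = 0.344). RLTR9E was 88.8 and 58.4 CPM in WT without DOX and 80.3 and 54.4 with it, and in TRIM33-KO 104 and 116 without and 138 and 153 with DOX. It rose in WT pLV2 line 1 (0.28), WT pLV2 line 2 (0.41) and TRIM33-KO (0.40), and fell below the other repeats in all 3 with scaling on repeats alone (-0.32, -0.48 and -0.82). RLTR9A2 was 1 of the 3 falls: in WT pLV2 line 1 it was 5.01 and 5.60 CPM without DOX and 3.96 and 3.03 with it (-0.60 ± 0.23, edgeR adjusted p = 0.0307), and no other line had a call. Its log2 fold change was -0.81 to -0.42 with 1 library of that line left out.

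MMERVK10C is a young element with the LTR RLTR10C, known for its rise in stem cells that lack TRIM28 or SETDB1. Its internal part was 125 and 97.4 CPM in WT without DOX and 463 and 229 with it. In DUXBL-KO it went from 135 and 207 to 586 and 531 CPM. In WT pLV2 line 1 it went from 99.5 and 99.0 to 430 and 483, and in WT pLV2 line 2 from 74.7 and 70.1 to 948 and 727. The groups did not overlap in these lines, and WT pLV2 line 2 was the lowest of the 4 without DOX and the highest with it.

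TRIM24-KO gave 95.9 and 110 CPM of MMERVK10C-int without DOX and 417 and 634 with it. TRIM33-KO gave 71.9 and 74.2 without DOX and 1230 and 1183 with it, the highest levels of the 24 libraries. The log2 fold change was 1.64 ± 0.34 in WT (edgeR adjusted p = 0.0316), 1.71 ± 0.34 in DUXBL-KO, 2.20 ± 0.15 in WT pLV2 line 1, 3.53 ± 0.16 in WT pLV2 line 2, 2.35 ± 0.15 in TRIM24-KO and 4.05 ± 0.17 in TRIM33-KO (1.61e-12). MMERVK10C-int took 5.28% of the counts of all 255 subfamilies over the 24 libraries.

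RLTR10C, the LTR, rose in all 6 lines with its internal part. It was 23.8 and 22.8 CPM in WT without DOX and 58.0 and 39.8 with it, and 15.0 and 14.7 against 157 and 154 in TRIM33-KO. Its log2 fold change was 1.07, 1.41, 2.23, 2.85, 2.18 and 3.39 in WT, DUXBL-KO, the WT pLV2 lines 1 and 2, TRIM24-KO and TRIM33-KO. The relatives RLTR10A, RLTR10B and RLTR10D missed the threshold in WT (0.08, 0.20 and 0.35) and DUXBL-KO (0.30, 0.45 and 0.34). RLTR10B rose in all 4 pLV2 lines, by 1.22 to 1.90. RLTR10A rose in WT pLV2 line 1 (0.54), WT pLV2 line 2 (1.33) and TRIM33-KO (1.13), with -0.06 in line 1 and -0.09 in TRIM33-KO on the scale of repeats alone. RLTR10D rose in WT pLV2 line 2 (0.81) and TRIM33-KO (0.83), where scaling on repeats alone gave -0.08 and -0.40.

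The MMERVK9 internal parts differed. MMERVK9E_I-int was 46.8 and 50.5 CPM in WT without DOX and 124 and 88.1 with it, and 28.2 and 23.3 against 245 and 189 in WT pLV2 line 2, with no overlap in any line. It rose in each line, from 1.12 ± 0.20 in WT to 3.07 ± 0.14 in WT pLV2 line 2. MMERVK9C_I-int was 138 and 119 CPM in WT without DOX and 150 and 123 with it, and had log2 fold changes of 0.09, 0.23, 0.04 and 0.07 in WT, DUXBL-KO, WT pLV2 line 1 and TRIM24-KO, none past the threshold. It rose in WT pLV2 line 2 (0.50) and TRIM33-KO (0.26), but with scaling on repeats alone the values were -0.38 and -0.97.

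RLTR17, another LTR of embryonic stem cells, was 95.0 and 70.6 CPM in WT without DOX and 93.8 and 61.8 with it. It rose in WT pLV2 line 1 (0.41), line 2 (0.64) and TRIM33-KO (0.82), which scaling on repeats alone turned to -0.19, -0.25 and -0.41. RLTR17B_Mm rose in WT pLV2 lines 1 and 2, in TRIM24-KO and in TRIM33-KO, by 0.40, 0.37, 0.28 and 0.69 in that order of lines, with -0.20, -0.51, -0.38 and -0.54 on the scale of repeats alone. Of the 4 RLTR17 subfamilies none rose in WT or DUXBL-KO (8.97% and 29.3% of all repeats), and 2, 3, 2 and 3 rose in the 4 pLV2 lines (61.2%, 71.8%, 56.0% and 77.4%), numbers too small to set apart from all repeats. Their median log2 fold change, 0.01, 0.05, 0.39, 0.51, 0.24 and 0.75 over the 6 lines, was below that of all repeats in each.

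The RMER subfamilies are a large set of older LTR repeats. Of 40 tested, 3 rose in WT and 17 in DUXBL-KO, and of 41 tested, 37, 40, 36 and 40 rose in the WT pLV2 lines 1 and 2, TRIM24-KO and TRIM33-KO. The shares were 7.50%, 42.5%, 90.2%, 97.6%, 87.8% and 97.6%, beside 8.97%, 29.3%, 61.2%, 71.8%, 56.0% and 77.4% of all repeats, most of which also rose in the pLV2 lines. RMER19B was 77.2 and 81.1 CPM in WT pLV2 line 1 without DOX and 123 and 117 with it (0.60 ± 0.10), and rose by 0.88 in WT pLV2 line 2, 0.63 in TRIM24-KO and 1.20 in TRIM33-KO. With scaling on repeats alone these 4 values were just below 0, at -0.000537, -0.01, -0.03 and -0.03. RMER13A rose in the same 4 lines (0.85, 0.85, 0.47 and 0.99) and had -0.04 in WT pLV2 line 2, -0.18 in TRIM24-KO and -0.23 in TRIM33-KO on the scale of repeats alone.

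Of the 6 BGLII and 3 MYSERV subfamilies tested, 1 and 0 rose in WT (8.97% of all repeats) and 6 and 3 in TRIM33-KO (77.4%), and their median log2 fold changes in WT were 0.52 and 0.54. BGLII itself was 36.2 and 37.8 CPM in WT without DOX and 38.6 and 38.2 with it, and rose in the 4 pLV2 lines by 0.48, 0.99, 0.59 and 0.77. Scaling on repeats alone gave it -0.46 in TRIM33-KO, -0.06 in TRIM24-KO and -0.12 in WT pLV2 line 1. BGLII_Mus, the stronger relative, rose in all 6 lines, from 1.07 in WT to 2.44 in TRIM33-KO. MYSERV-int rose in WT pLV2 line 2 (1.31), TRIM33-KO (1.62) and TRIM24-KO (0.41), the last with -0.24 on the scale of repeats alone.

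**Figure D3:**
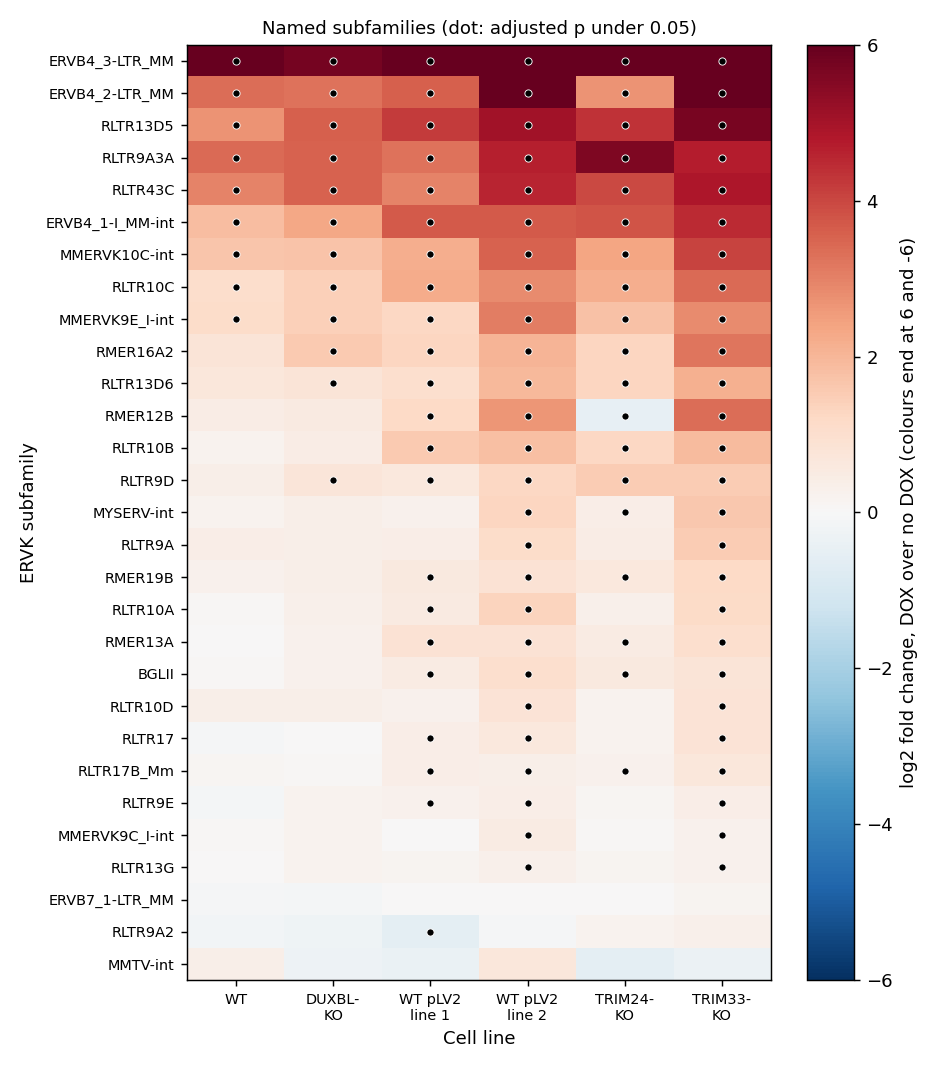
Log2 fold change with DOX (colour) of the named subfamilies (vertical axis) in each of the 6 lines (horizontal axis), with a dot where the adjusted p is under 0.05. The ERVB4 LTRs, RLTR13D5, RLTR9A3A and RLTR43C are dark red in most lines, and RLTR17, RLTR13G and MMERVK9C_I-int are near white in WT.

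Internal parts had larger medians than LTRs. The median log2 fold change of the 32 internal parts was 0.56, 0.82, 0.99, 1.92, 1.40 and 2.06 in WT, DUXBL-KO, the WT pLV2 lines 1 and 2, TRIM24-KO and TRIM33-KO, and that of the tested LTRs was 0.28, 0.46, 0.73, 1.19, 0.74 and 1.46. Of the 32 internal parts, 8, 18, 22, 30, 25 and 30 rose (25%, 56.2%, 68.8%, 93.8%, 78.1% and 93.8%, beside 8.97%, 29.3%, 61.2%, 71.8%, 56.0% and 77.4% of all repeats). Of the LTRs, 12 and 72 of 208 rose in WT and DUXBL-KO, and 142, 176, 140 and 182 of 209 in the pLV2 lines, or 5.77%, 34.6%, 67.9%, 84.2%, 67.0% and 87.1% over the 6 lines. Where a name paired an internal part with an LTR and both were tested (15 pairs), the LTR had the larger fold change in 8, 9, 9, 8, 8 and 8 pairs. Without ERVB4_3, whose LTR was tested only because of its DOX libraries, these were 7, 8, 8, 7, 7 and 7 of 14 pairs. RMER16-int stands in 2 pairs, with RMER16 and with RMER16_Mm. These medians and counts are descriptions, and the difference between the kinds was not tested.

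RLTR19 and ERVB3_1, chosen after their values were seen, are pairs whose parts differed in opposite directions. RLTR19, the LTR, was 12.4 and 15.4 CPM in WT without DOX and 44.4 and 27.5 with it, and 11.2 and 9.60 against 150 and 143 in TRIM33-KO. It rose in all 6 lines, by 1.36, 1.83, 2.52, 3.37, 2.41 and 3.81. RLTR19-int, which took 4.70% of the counts of all 255 subfamilies, had 0.18, 0.06, 0.09, 0.19, 0.15 and 0.38, and -0.03, -0.30, -0.51, -0.70, -0.50 and -0.84 with scaling on repeats alone. The opposite held for ERVB3_1, whose internal part had 1.78, 2.63, 2.47, 3.96, 2.63 and 3.95 and whose LTR had 0.48, 0.99, 0.86, 1.19, 1.43 and 1.98. The names pair the parts, and the tables do not show which copies gave the reads.

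**Figure D4:**
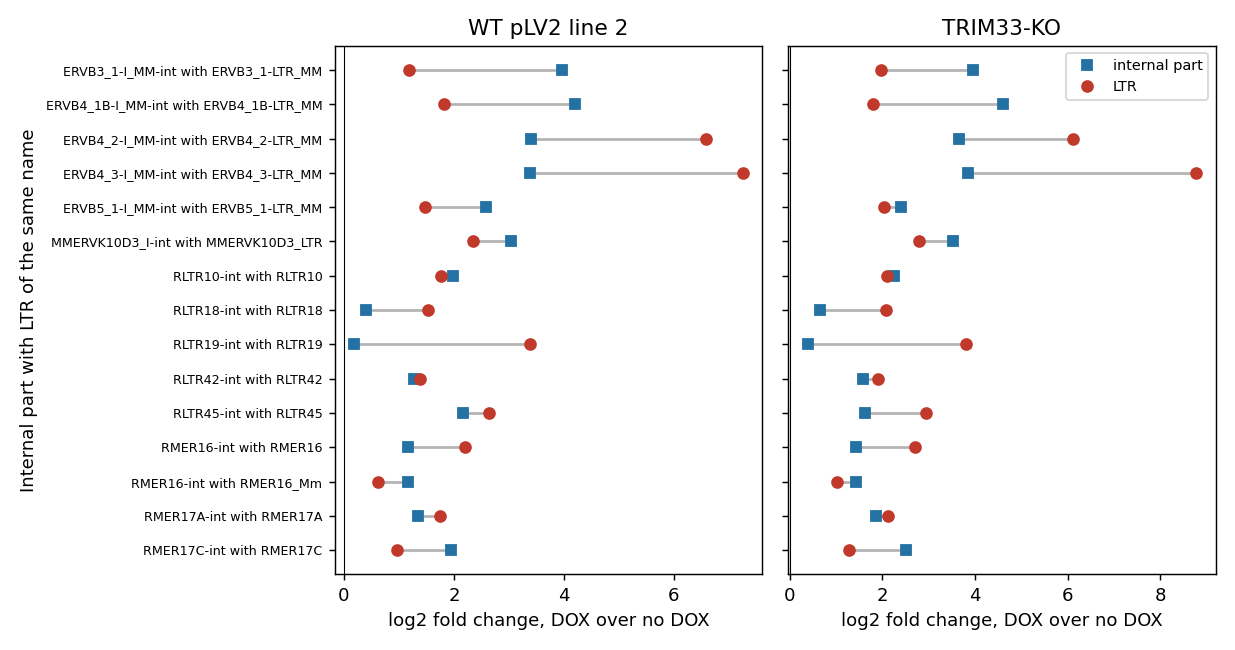
Log2 fold change with DOX (horizontal axis) of the internal part (squares) and the LTR (circles) of the 15 pairs that share a name, in WT pLV2 line 2 (left) and TRIM33-KO (right). In TRIM33-KO the RLTR19 LTR is at 3.81 and its internal part at 0.38, and in ERVB3_1 the internal part lies to the right of the LTR.

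SRV_MM-int, also named after its values were seen, rose in each line. It was 6.98 and 9.66 CPM in WT without DOX and 38.4 and 21.2 with it, and 6.76 and 6.29 against 161 and 152 in TRIM33-KO. No line had overlapping groups, and the log2 fold change was 1.83, 2.38, 2.63, 4.36, 3.43 and 4.59 over the 6 lines.

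Some subfamilies showed no DOX call in any line. ERVB7_1-LTR_MM, with 3.61% of the counts of all 255 subfamilies, had log2 fold changes between -0.10 and 0.14, and its groups in WT (324 and 289 CPM without DOX, 269 and 313 with it) overlapped. In DUXBL-KO its level was 145 and 355 CPM without DOX and 146 and 322 with it, and that of RLTR13G was 274 and 602 without and 333 and 674 with it. In both, the replicate 2 libraries were above the replicate 1 libraries, with and without DOX. The related ERVB7_2B-LTR_MM rose in all 6 lines (1.34, 2.22, 1.82, 2.88, 2.80 and 3.63). MMTV-int, the internal part of mouse mammary tumour virus, had 4 to 31 counts per library and no call, and RLTR3_Mm had 0 to 7 counts and was not tested.

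The other falls were RLTR53B_Mm and RMER12B. RLTR53B_Mm, named after its values were seen, had 13 and 22 counts in WT pLV2 line 1 without DOX and 6 and 3 with it, and fell there (-1.74, edgeR adjusted p = 0.00677). Its log2 fold change was -2.31 to -1.32 with 1 library of that line left out. Of the 2 falls of WT pLV2 line 1, 1 remained with DESeq2 (0.104% of all repeats fell). Adjustment over genes and repeats together also left 1 (0.104%). RMER12B in TRIM24-KO was 25.7 and 22.8 CPM without DOX and 16.4 and 17.9 with it, groups that did not overlap (-0.50 ± 0.15, edgeR adjusted p = 0.00811). The adjusted p was 0.0661 when replicate 1 without DOX was left out, and 0.0581 when replicate 1 with DOX was left out.

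The size of the DOX effect was compared between lines as a difference of log2 fold changes. Between DUXBL-KO and WT no subfamily of 240 differed past the threshold by edgeR (0.0% of all repeats). With the replicate number as a block the count was 0 and with DESeq2 it was 0, and 7 of 240 had an unadjusted p under 0.05 by edgeR, beside 18 of all 981 repeats. The median difference was 0.20, beside 0.16 over all repeats. For RLTR13D5 the difference was 0.92 ± 0.64 and for MMERVK10C-int 0.07 ± 0.47.

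The WT pLV2 lines, of the same labelled genotype, differed from each other. In line 2 the DOX effect was larger than in line 1 for 67 of 241 subfamilies (27.8%, all repeats 20.7%) and smaller for none, with a median difference of 0.50, beside 0.33 over all repeats. With scaling on repeats alone 19 were larger (7.92%, all repeats 7.35%) and none smaller, and without WT pLV2 line 2 with DOX replicate 1 the count was 35 (14.4%, all repeats 11%). The 67 held 18 of the 32 internal parts and 5 of the 8 ERVB4 subfamilies. ERVB4_2-LTR_MM differed by 2.99 ± 0.51 (edgeR adjusted p = 0.00104), MMERVK9E_I-int by 1.83 ± 0.19 (4.08e-05) and MMERVK10C-int by 1.33 ± 0.21 (0.000595). RMER12B, at 3.16 and 4.25 CPM without DOX in line 1 and 4.22 and 4.23 in line 2, reached 7.84 and 8.93 in line 1 and 28.9 and 23.9 in line 2.

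TRIM24-KO and TRIM33-KO were each set against the WT pLV2 lines by their mean, so the comparisons share those 8 libraries. In TRIM33-KO the DOX effect was larger for 125 of 241 (51.9%, all repeats 40.7%) and smaller for none (0.311%), with a median difference of 0.53, beside 0.44 over all repeats. RMER16A2 differed by 1.53 ± 0.29 (edgeR adjusted p = 0.000824), from 1.74 and 1.39 CPM without DOX to 13.5 and 15.4 with it in TRIM33-KO. RMER12B differed by 1.45 ± 0.21 (0.000192), from 3.88 and 3.79 to 44.9 and 33.7 CPM, and MMERVK10C-int by 1.18 ± 0.18 (0.000281). With scaling on repeats alone 7 were larger (2.92%, all repeats 3.11%) and 4 smaller (1.67%, all repeats 2.38%), and without TRIM33-KO without DOX replicate 1 the count was 83 (34.2%, all repeats 29.9%). The result depended on the WT line: against line 1 alone 150 were larger (62.2%, all repeats 45.9%) and 1 smaller (all repeats 0.622%), and against line 2 alone no subfamily passed by edgeR (all repeats 0.104%), with 57 at an unadjusted p under 0.05. Against line 2 alone the difference for MMERVK10C-int was 0.51 (edgeR adjusted p = 0.146).

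In TRIM24-KO the DOX effect was smaller than in the WT pLV2 lines for 6 of 241 (2.49%, all repeats 1.24%) and larger for none (0.104%), with a median difference of -0.20, beside -0.17 over all repeats. The 6 were RMER12B (-2.41 ± 0.20, edgeR adjusted p = 1.38e-06), ERVB4_2-LTR_MM (-2.40 ± 0.35, 0.00187), RLTR45-int (-1.38), RLTR13B2 (-1.13), ERVB4_1C-LTR_Mm (-0.99) and RMER16-int (-0.50), the last 4 named after their values were seen. Against line 1 alone RMER12B differed by -1.68 (edgeR adjusted p = 0.004) and ERVB4_2-LTR_MM by -0.90 (0.421), and the counts were 2 larger and 1 smaller (all repeats 0.415% and 0.104%). Against line 2 alone 43 were smaller (17.8%, all repeats 14.0%) and none larger. With scaling on repeats alone 5 were smaller (2.08%, all repeats 1.24%) and 3 larger (1.25%, all repeats 0.828%). Without TRIM24-KO with DOX replicate 2, in which CT010467.1 took 30.4% of gene counts, 68 were smaller (28%, all repeats 26.8%) and 2 larger (0.823%, all repeats 0.405%), and the part of that gene in the result was not tested.

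Levels without DOX differed in TRIM24-KO for some of these subfamilies, given here as values with no test. RMER12B was 25.7 and 22.8 CPM there and 3.16 to 4.25 in the other pLV2 lines, and 10.6 to 17.5 in WT and DUXBL-KO. RLTR45-int was 103 and 160 CPM in TRIM24-KO and 11.4 to 53.5 in the other lines. In both, the TRIM24-KO libraries without DOX lay above those of all other lines, though CPM of WT and DUXBL-KO was scaled apart from that of the pLV2 lines.

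Genes that silence retroviral elements, ERVK or other, were read in the same libraries from a list of 41, all tested among all genes. None passed edgeR's test in WT (2 at an unadjusted p under 0.05; 2.86% of all genes higher and 0.116% lower) or DUXBL-KO (7; 4.52% and 0.399%). In the pLV2 lines 3 rose and 6 fell in WT line 1, 4 and 11 in WT line 2, 5 and 1 for TRIM24-KO, and 7 and 15 for TRIM33-KO, beside 9.96% of all genes higher and 6.12% lower, 12.7% and 13.8%, 11.4% and 4.88%, and 16.4% and 20.0%. Zfp809, a zinc finger protein that targets retroviral primer binding sites, rose by 1.54, 2.13, 1.72 and 2.96 on the log2 scale, from 17.2 and 15.9 CPM to 133 and 124 in TRIM33-KO. Trim28, the shared corepressor, rose by 0.24, 0.32, 0.40 and 0.50, and Setdb1 by 0.23, 0.25, 0.25 and 0.22. Dnmt3l, a DNA methylation cofactor, fell by 0.33, 0.40 and 0.42 in WT line 1, WT line 2 and TRIM33-KO. In the same lines Ehmt2 fell by 0.29, 0.40 and 0.38, and Smarcad1 by 0.25, 0.37 and 0.41. Mphosph8 fell there by 0.23, 0.29 and 0.32, and Zfp819 by 0.58, 0.73 and 0.81. Morc3 fell by 0.29, 0.22 and 0.39 in WT line 2, TRIM24-KO and TRIM33-KO. The falls of TRIM33-KO include Trim33 itself (-0.25, edgeR adjusted p = 0.0334). The part of these genes in the response of the ERVK subfamilies was not tested.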

How the data were processed

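RNA was measured in 24 libraries of 12 groups of 2, grouped by title. Reads were handled with bcl2fastq 2.20.0, cutadapt 1.18 and STAR 2.7.6a on mm10, per the submitters' processing notes. The values are whole-number counts per gene and per repeat subfamily as deposited by the authors. The counting tool, the repeat annotation and the handling of reads that match several copies are not given in the sources used here, and related subfamilies or overlapping copies may share reads, so single subfamilies are uncertain to that extent. The labels do not say that the 2 libraries of a group came from separate cultures, so p-values measure only the spread between these samples, which may be technical.

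Library sizes and TMM factors came from gene counts, and CPM is counts scaled to 1e+06 of these sizes. The factors were computed apart for the libraries of WT and DUXBL-KO and for the pLV2 libraries. CPM values of these sets are therefore not on exactly the same scale. Features were filtered with filterByExpr by group. The 8 libraries of WT and DUXBL-KO and the 16 pLV2 libraries were fitted apart, with 1 mean per group, in edgeR 4.0.16 (glmQLFit, glmQLFTest, 2-sided, R 4.3.3). SE is the log2 fold change divided by the root of F. The Benjamini-Hochberg adjustment ran over all tested repeats within each of 10 contrasts, and over genes separately, with a threshold of 0.05. The scripts were tested on simulated data. A group at 0 was compared with 3 counts, and counting intervals are 95% and cover counting error only.

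Named subfamilies were a fixed list of 24 names (22 present), and per DOX contrast the 3 rises and 3 falls largest in size, per difference between lines the 2 higher and 2 lower, among calls with a mean of at least 50 counts and, for DOX contrasts, no overlap of libraries. The subfamilies, lists and rule were chosen with earlier results of these data known. The list of 41 silencing genes and the marker lists were written from general knowledge. Alternatives were DESeq2 1.42.0, RLE factors, scaling on genes and repeats together, on repeats alone or without CT010467.1, no filter or a mean of 10 counts, adjustment over genes and repeats together, a minimum log2 size of 1, only the groups compared, a replicate block, each WT pLV2 line alone and each library left out. The alternatives for the silencing genes were added after seeing the data.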

Additional observations from a re-analysis of the deposited data

Results flagged for a closer look

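Differences of the DOX effect between lines passed edgeR's test in 3 comparisons. WT pLV2 line 2 exceeded line 1 for 67 of 241 subfamilies (27.8%, all repeats 20.7%), with ERVB4_2-LTR_MM at 2.99, MMERVK9E_I-int at 1.83 and MMERVK10C-int at 1.33 on the log2 scale, though both lines carry the same genotype label. TRIM33-KO exceeded the mean of the WT pLV2 lines for 125 (51.9%, all repeats 40.7%), and for none against WT pLV2 line 2 alone. Against the mean the differences included RMER16A2 at 1.53, RMER12B at 1.45 and MMERVK10C-int at 1.18. TRIM24-KO was below that mean for 6 (2.49%, all repeats 1.24%), RMER12B (-2.41), ERVB4_2-LTR_MM (-2.40), RLTR45-int (-1.38), RLTR13B2 (-1.13), ERVB4_1C-LTR_Mm (-0.99) and RMER16-int (-0.50). Against WT pLV2 line 1 alone, only RMER12B of these passed (-1.68, edgeR adjusted p = 0.004). The edgeR adjusted p of the rest was 0.288 to 0.772 there. The knockout comparisons share the WT libraries.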

How the results depend on the processing

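In WT the count of 20 became 45 with the replicate block, 39 with DESeq2, 62 with no filter, 6 with only the groups compared and 0 to 51 with 1 library left out (0 without WT without DOX replicate 1 or replicate 2, and 4 without WT with DOX replicate 1). In DUXBL-KO the count of 90 became 52 with a minimum log2 size of 1, 54 with adjustment over genes and repeats together, 32 with scaling on repeats alone and 24 to 91 with 1 library left out (24 without DUXBL-KO without DOX replicate 1, 34 without DUXBL-KO with DOX replicate 1 and 54 without its replicate 2). With the minimum size the counts were 79 in WT pLV2 line 1 and 102 in TRIM24-KO, and scaling on repeats alone gave 97 in WT pLV2 line 1. Of all repeats, 16.2%, 28.7% and 31.6% rose by the minimum size in DUXBL-KO, WT pLV2 line 1 and TRIM24-KO. Adjustment over genes and repeats together gave 22.5% of these subfamilies in DUXBL-KO, beside 18.2% of all repeats. With 1 library left out the counts were 149 to 160, 193 to 202, 141 to 166 and 205 to 213 in the WT pLV2 lines 1 and 2, TRIM24-KO and TRIM33-KO.

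Scaling on repeats alone gave medians of 0.10, 0.13, 0.15, 0.36, 0.13 and 0.31 in WT, DUXBL-KO, the WT pLV2 lines 1 and 2, TRIM24-KO and TRIM33-KO. With 1 library left out they were 0.18 to 0.44, 0.36 to 0.63, 0.72 to 0.81, 1.16 to 1.33, 0.65 to 0.90 and 1.52 to 1.67. With only the groups compared the median was 0.79 in WT pLV2 line 1 and 1.65 in TRIM33-KO, where it was also 1.62 with DESeq2, 1.61 with RLE factors, 1.49 with genes and repeats together, 1.56 without CT010467.1 and 1.50 with no filter.

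For the differences between lines, line 2 minus line 1 had 30 calls with the minimum size, 19 with adjustment over genes and repeats together, 19 with scaling on repeats alone and 35 to 75 with 1 library left out. The fewest, 35, came without WT pLV2 line 2 with DOX replicate 1, and 41 or 42 came without line 1 without DOX replicate 2, line 1 with DOX replicate 1 or line 2 without DOX replicate 2. TRIM24-KO had 11 with DESeq2, 10 without CT010467.1, 27 with no filter, 3 against line 1 alone, 43 against line 2 alone and 5 to 70 with 1 library left out. TRIM33-KO had 24 with the minimum size, 57 with adjustment together, 11 with scaling on repeats alone (7 higher, 4 lower), 0 against line 2 alone and 83 to 121 with 1 library left out (83 without TRIM33-KO without DOX replicate 1). DUXBL-KO minus WT stayed at 0 in all of them. No filter gave TRIM24-KO 9.6% of these subfamilies lower and 1.2% higher, beside 9.12% and 1.43% of all repeats. DESeq2 gave it 4.15% lower, beside 2.49%, and leaving out CT010467.1 gave 3.72%, beside 2.26%. Adjustment together gave line 2 minus line 1 7.88% higher, beside 6.11%, and TRIM33-KO 23.7%, beside 20.8%. The 30 and 24 of 241 that were larger with the minimum size stand beside 71 and 76 of 965 repeats. The silencing genes had 52 calls summed over the 6 lines and 161 with scaling on repeats alone.

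Directions turned with scaling on repeats alone for RLTR10A (-0.06 in WT pLV2 line 1, -0.09 in TRIM33-KO), RLTR10D (-0.08 in line 2, -0.40 in TRIM33-KO), MMERVK9C_I-int (-0.38, -0.97), RLTR13G (-0.59, -0.96), RLTR9E (-0.32 in line 1, -0.48 in line 2, -0.82 in TRIM33-KO) and RLTR17 (-0.19, -0.25, -0.41). They turned also for RLTR17B_Mm (-0.20, -0.51, -0.38, -0.54 in line 1, line 2, TRIM24-KO, TRIM33-KO), RMER19B (-0.000537, -0.01, -0.03, -0.03), BGLII (-0.12 in line 1, -0.06 in TRIM24-KO, -0.46 in TRIM33-KO), RMER13A (-0.04 in line 2, -0.18 in TRIM24-KO, -0.23 in TRIM33-KO), MYSERV-int (-0.24 in TRIM24-KO) and RLTR19-int (-0.03, -0.30, -0.51, -0.70, -0.50 and -0.84 over the 6 lines). The difference of MMERVK10C-int between TRIM24-KO and the WT lines, -0.52, was 0.15 against line 1 alone. Of the other values of named subfamilies, 2026 kept their direction and side of the threshold, 118 missed it and 4 newly passed it. The cause was not tested.

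Samples with the same replicate number deviated together in WT and DUXBL-KO (correlation 0.255 to 0.549) and little in the pLV2 lines (-0.047 to 0.195), and with 2 numbers per group they were not taken as pairs. The replicate block gave 114 in DUXBL-KO, 167, 206, 166 and 212 in the pLV2 lines, and 65, 7 and 125 for line 2 minus line 1, TRIM24-KO and TRIM33-KO, within 1.5 times the counts without it. Of all repeats, 35.9% rose in DUXBL-KO and 61.0%, 71.7%, 55.6% and 77.8% in the pLV2 lines with the block. For the 3 differences 20.3% were larger, 1.45% smaller and 40.8% larger. Depth limits the 61 subfamilies with a mean under 50 counts.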
